A study of Mus musculus with 9 samples.

Results

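The 10 genes described here encode proteins that neutrophils make late in their maturation, when the secondary and tertiary granules form. They were chosen by symbol as Ltf, Camp, Ngp, Lcn2, Mmp8, Mmp9, Chil3, Ly6g, S100a8 and S100a9, and are 10 of the 19938 genes tested. Each was read by 1 probe set, a group of short array probes that read the same transcript region. The label holds only in part. Ltf, Camp, Ngp, Lcn2, Mmp8, Mmp9 and Chil3 encode granule proteins, and that of Chil3 is a lectin that macrophages also make and secrete. Ly6g encodes a surface protein of mouse neutrophils, and S100a8 and S100a9 encode a cytosolic protein pair. All 10 are called the granule genes below.

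RNA was measured on 9 Affymetrix arrays of femoral bone marrow from C57BL6 mice, with 3 arrays per group. The ERG leukemia group held whole marrow of 3 mice with an ERG transgene, each with a myeloid leukemia, killed once signs of the disease appeared. The lineage-negative group held wild type marrow that a lineage depletion kit had stripped of cells with mature blood cell markers, pooled from 3 mice per array (9 mice). The whole marrow group held undepleted marrow of 3 other wild type mice. The labels name neither the species and promoter of the transgene nor the ages of the mice. The transgenic marrow was not depleted, so whole marrow is its counterpart in preparation and lineage-negative marrow is the wild type material nearest to immature cells.

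The arrays resembled each other in scale, with a median intensity per array of 32.3 to 34.4, and arrays of a group correlated across genes at r = 0.971 to 0.995. Neutrophil markers were low in lineage-negative marrow. Of the granulocyte precursor markers, Mpo was near whole marrow and Elane had a lower mean. The neutrophil markers Csf3r and Cxcr2 had mean intensities of 119 and 86.1 in lineage-negative marrow against 1405 and 1846 in whole marrow, while the granulocyte precursor markers Mpo and Elane had 2556 and 1682 against 2508 and 2502. Of 11 B cell markers, 10 were lower in ERG leukemia than in whole marrow, and of 11 erythroid markers 8 were higher, where 9.93% of all genes were called lower and 14.6% higher. Summed intensity of the erythroid markers was 10836 to 14625 in the leukemias, 10148 to 12336 in lineage-negative marrow and 3005 to 7044 in whole marrow. Lineage-negative marrow was also above whole marrow in summed megakaryocyte and platelet markers (5722 to 9360 against 2372 to 3491) and in eosinophil, basophil and mast cell markers (5716 to 10083 against 2806 to 4407). Marrow RNA is a mixture of cell types, and fewer cells of a type cannot be told apart here from less RNA per cell.

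Neutrophils fill their granules in sequence as they mature. Promyelocytes make the primary granule enzymes such as myeloperoxidase, later precursors make the secondary granule proteins and then gelatinase of the tertiary granules, and nearly mature cells add receptors stored in secretory vesicles. The transcription factor C/EBP epsilon is needed for the secondary granule genes. In bone marrow these cells are abundant, and their transcripts are among the most plentiful of the tissue.

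RefSeq promoter windows of GRCm38.p6 were matched by symbol for 9 of the granule genes (10 windows, since Ly6g has 2), with none printed for Mmp9. Of the 250 bases before the start, 4 windows are shown 5′ to 3′ in the direction of the gene, because they hold the letters searched for alone and in combination. Capitals mark matches to TTGCNNAA, a form of the C/EBP motif, or to AGGAAGT, a form of the ETS motif that ERG and PU.1 bind, on either strand. The 2 motifs do not overlap in these windows.
Ltf, chr9:111019042-111019291, + strand: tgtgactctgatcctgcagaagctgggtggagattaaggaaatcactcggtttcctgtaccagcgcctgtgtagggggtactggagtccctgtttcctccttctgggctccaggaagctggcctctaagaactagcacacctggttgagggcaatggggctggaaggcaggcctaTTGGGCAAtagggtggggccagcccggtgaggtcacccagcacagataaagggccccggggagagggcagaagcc
Ngp, chr9:110419558-110419807, + strand: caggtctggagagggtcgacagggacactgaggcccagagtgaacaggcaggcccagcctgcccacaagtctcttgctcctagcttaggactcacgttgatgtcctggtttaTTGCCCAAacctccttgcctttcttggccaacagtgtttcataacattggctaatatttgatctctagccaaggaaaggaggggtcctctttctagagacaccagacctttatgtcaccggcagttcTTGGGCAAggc
Mmp8, chr9:7558179-7558428, + strand: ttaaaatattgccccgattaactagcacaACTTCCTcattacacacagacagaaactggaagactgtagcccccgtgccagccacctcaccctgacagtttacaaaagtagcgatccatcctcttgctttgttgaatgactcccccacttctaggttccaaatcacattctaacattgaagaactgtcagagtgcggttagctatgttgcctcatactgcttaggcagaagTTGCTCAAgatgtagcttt
S100a8, chr3:90668821-90669070, + strand: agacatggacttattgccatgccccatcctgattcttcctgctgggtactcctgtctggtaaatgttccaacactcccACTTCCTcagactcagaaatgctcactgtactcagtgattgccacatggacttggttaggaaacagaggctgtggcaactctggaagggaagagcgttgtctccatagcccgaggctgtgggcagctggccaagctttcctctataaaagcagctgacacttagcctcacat
Ltf holds TTGGGCAA 75 to 68 bases before the start, Ngp holds TTGCCCAA at 138 to 131 and TTGGGCAA at 11 to 4, Mmp8 holds ACTTCCT at 221 to 215 and TTGCTCAA at 19 to 12, and S100a8 holds ACTTCCT at 172 to 166. TTGCNNAA was found in 6 of the 10 windows (Ltf, Ngp, Lcn2, Mmp8, S100a9 and 1 of the Ly6g windows), against 9.56% of 32851 windows of all genes. AGGAAGT was found in 5 of the 10 (Mmp8, Chil3, S100a8 and both Ly6g windows, which overlap each other), against 7.69% of all windows. Camp held neither. The letters of both motifs were chosen after the members' windows had been seen, so the shares are a description, and a match is not evidence of binding.

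In the 3 leukemias the granule genes gave strong signals, on every array above lineage-negative marrow and, for all but Chil3, below whole marrow. Intensities of the 10 genes ran from 467 to 4175 in the leukemias, from 21.1 to 521 in lineage-negative marrow and from 2036 to 5907 in whole marrow. On the leukemia arrays they ranked 65th to 2562nd of 28853 probe sets by intensity, on the lineage-negative arrays 2329th to 21642nd, and on the whole marrow arrays 8th to 363rd. The whole marrow values lie high on the scale, whose brightest probe set on any of the 9 arrays read 9822, and whether the brightest signals were compressed was not tested.

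**Figure D1:**
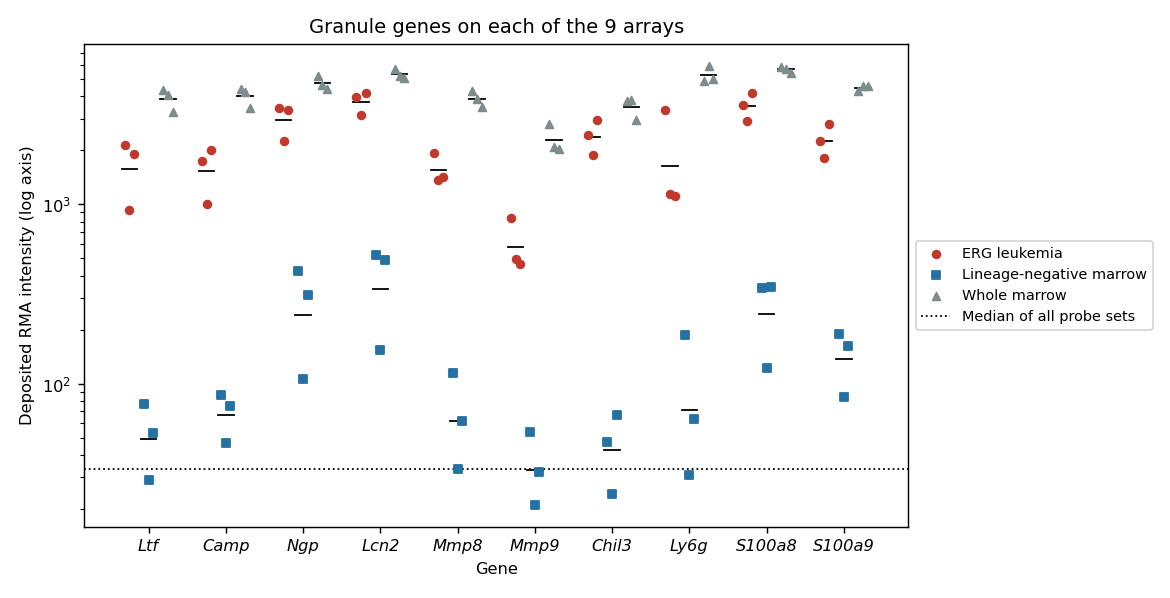
Deposited RMA intensity (log axis) of the 10 granule genes on each array, with red circles for ERG leukemia, blue squares for lineage-negative marrow, grey triangles for whole marrow, black bars for the mean of log2 values of 3 arrays and a dotted line at the median of all probe sets, 33.4. Leukemia values lie between 467 and 4175 and lineage-negative values between 21.1 and 521, with every leukemia value of a gene above the lineage-negative values of that gene.

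Against whole marrow, 5 of the 10 granule genes passed the test as lower in the leukemias (Ltf, Camp, Mmp8, Mmp9 and S100a9) and 0 as higher. Across all genes, 9.93% were called lower. The 3 leukemia arrays lay below the 3 whole marrow arrays in 9 of 10 granule genes, a pattern found in 17.7% of all genes, and Chil3 was the exception. The median log2 difference of the 10 was -1.14, against -0.02 over all genes tested. The model shares 1 spread per gene across the 3 groups, and across the granule genes the standard deviation (log2) ran over 0.22 to 0.91 for ERG leukemia, 0.46 to 1.31 for lineage-negative marrow and 0.05 to 0.25 for whole marrow. With only the leukemia and whole marrow arrays in the fit, 9 of the 10 passed, and likewise 9 without lineage-negative pool 2. Leaving out any 1 whole marrow array, or leukemia 2, brought it to 2, and it was 3 without leukemia 3 or lineage-negative pool 3. Camp and Mmp9 passed under all 17 alternatives.

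Among the genes of secondary granule proteins, Ltf encodes lactoferrin, which binds iron. Its intensity was 2151, 928 and 1911 in leukemias 1, 2 and 3, 76.4, 28.9 and 53.3 in lineage-negative pools 1, 2 and 3, and 4329.8, 4043 and 3282 in whole marrow arrays 1, 2 and 3. The 3 groups did not overlap, and leukemia 2 was the lowest of the leukemias. Ltf was 2.47-fold lower in ERG leukemia than in whole marrow (log2 difference -1.30 ± 0.39 SE, limma adjusted p = 0.0413) and 31.9-fold higher than in lineage-negative marrow (4.99 ± 0.39, adjusted p = 0.000566).

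Camp encodes the mouse cathelicidin, an antimicrobial peptide precursor. It read 1746, 1007 and 2017 in the leukemias, 86.1, 46.6 and 74.6 in the lineage-negative pools and 4383, 4249 and 3455 in whole marrow. The order of the groups was that of Ltf, again with leukemia 2 and pool 2 lowest. Camp was 2.63-fold lower in ERG leukemia than in whole marrow (-1.39 ± 0.29, adjusted p = 0.00949) and 22.8-fold higher than in lineage-negative marrow (4.51 ± 0.29, adjusted p = 0.000306).

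Ngp encodes neutrophilic granule protein, a relative of the cathelicidins. It read 3424, 2259 and 3365 in the leukemias, 425, 107 and 313 in the lineage-negative pools and 5176, 4618 and 4387 in whole marrow. The leukemias lay below whole marrow on every array, yet the difference did not pass (log2 difference -0.67, 95% interval -1.67 to 0.33, adjusted p = 0.337). Fitted on the leukemia and whole marrow arrays alone it did (adjusted p = 0.0419), and likewise without lineage-negative pool 2 (0.037).

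Lcn2 encodes lipocalin 2, which withholds iron from bacteria by binding their siderophores. It read 3987, 3142 and 4163 in the leukemias, 521, 153 and 487 in the lineage-negative pools and 5669, 5192 and 5053 in whole marrow. Of the 10 genes it differed least between leukemia and whole marrow, with a log2 difference of -0.50 (95% interval -1.43 to 0.42, adjusted p = 0.448). Its groups did not overlap, and on the leukemia and whole marrow arrays alone the adjusted p was 0.0358.

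Mmp8 encodes the neutrophil collagenase. It read 1926, 1366 and 1422 in the leukemias, 115, 33.3 and 62.2 in the lineage-negative pools and 4307, 3861 and 3499 in whole marrow. Leukemia 1 was the highest of the leukemias and remained below every whole marrow array. Mmp8 was 2.5-fold lower in ERG leukemia than in whole marrow (-1.32 ± 0.38, adjusted p = 0.0335) and 25.1-fold higher than in lineage-negative marrow (4.65 ± 0.38, adjusted p = 0.000566).

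Mmp9 encodes gelatinase B, the enzyme that names the tertiary granules. It read 841, 494 and 467 in the leukemias, 53.3, 21.1 and 32.1 in the lineage-negative pools and 2791, 2092 and 2036 in whole marrow. Leukemias 2 and 3 lay close together and leukemia 1 above them. Mmp9 had the largest difference of the 10 from whole marrow, 3.94-fold lower in the leukemias (-1.98 ± 0.34, adjusted p = 0.00423). It was at least 17.3-fold higher than in lineage-negative marrow, a bound set against the median of all probe sets, since the lineage-negative mean lay below that median (limma adjusted p = 0.000636).

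S100a8 and S100a9 encode the subunits of calprotectin, a calcium and zinc binding protein of the neutrophil cytosol. S100a8 read 3575, 2902 and 4175 in the leukemias, 343, 122 and 347 in the lineage-negative pools and 5814, 5712 and 5419.6 in whole marrow. S100a9 read 2265, 1812 and 2817 in the leukemias, 189, 84.5 and 162 in the lineage-negative pools and 4266, 4538 and 4574 in whole marrow. In both genes the groups stood apart, and leukemia 3 was the highest leukemia and leukemia 2 the lowest. S100a9 was 1.97-fold lower in ERG leukemia than in whole marrow (-0.98 ± 0.28, adjusted p = 0.0338). S100a8 did not pass (-0.69, 95% interval -1.51 to 0.14, adjusted p = 0.224), and with the leukemia and whole marrow arrays alone its adjusted p was 0.0187.

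Chil3 encodes the chitinase-like protein known as Ym1. It read 2438, 1872 and 2958 in the leukemias, 47.2, 24.2 and 66.9 in the lineage-negative pools and 3781, 3797 and 2937 in whole marrow. Leukemia 3 lay above whole marrow array 3, so the groups overlapped, and the difference from whole marrow did not pass (-0.55, 95% interval -1.31 to 0.22, adjusted p = 0.301). Against lineage-negative marrow Chil3 had the largest fold of the granule genes not given as a bound, 56.1-fold higher in the leukemias (5.81 ± 0.34, adjusted p = 0.000153). Monocytes and macrophages can make this protein too. Summed intensity of 15 monocyte and macrophage markers was 7987, 3529 and 8815 in leukemias 1, 2 and 3, 3869, 1922 and 2875 in the lineage-negative pools and 6287, 7914 and 5769 in whole marrow. Against whole marrow, 1 of these 15 markers was lower in the leukemias and 0 were higher (median log2 difference -0.02). Beside 9.93% lower and 14.6% higher over all genes, the single lower call is not above the background share. Without leukemia 2 the numbers were 1 and 4, where 1490 and 2596 of the 19938 genes were called. The part of these cells in the Chil3 signal was not tested.

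Ly6g encodes the surface antigen by which mouse neutrophils are sorted. It read 3353, 1146 and 1114 in the leukemias, 186, 30.8 and 63.1 in the lineage-negative pools and 4839.6, 5907 and 5011 in whole marrow. Leukemia 1 stood well above the other leukemias, the widest spread of the 10 genes in that group (SD 0.91 on the log2 scale), and was still below every whole marrow array. The mean was 3.22-fold lower in ERG leukemia than in whole marrow without passing (-1.69, 95% interval -3.12 to -0.25, adjusted p = 0.0891). Without leukemia 1 the log2 difference was -2.21 and passed (adjusted p = 0.0388). Lineage depletion kits for mouse commonly carry antibodies to the Ly6g antigen (the labels do not list those of this kit), and the part of such antibodies in the low Ly6g signal of lineage-negative marrow was not tested.

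**Figure D2:**
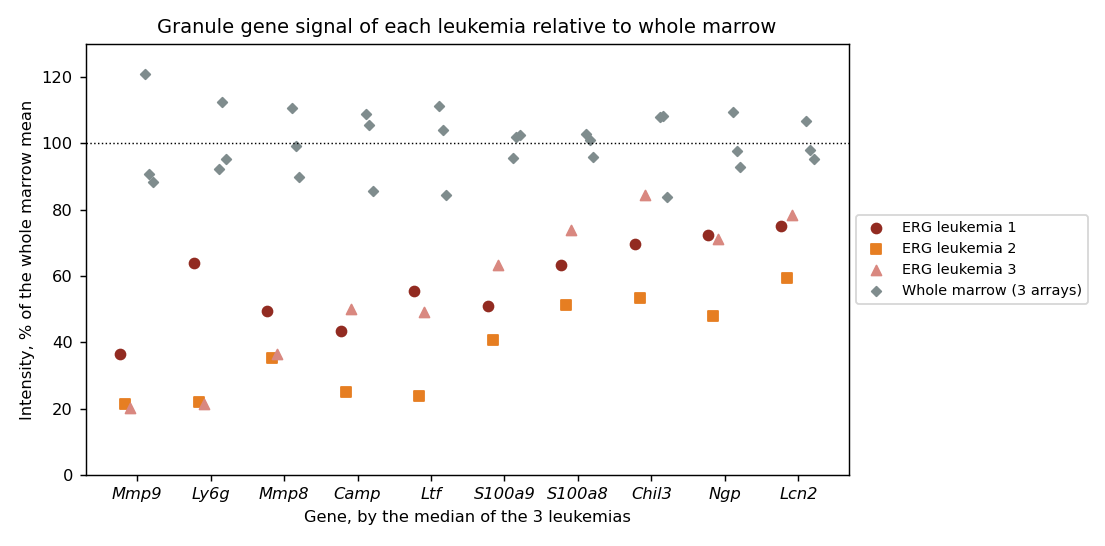
Intensity of each granule gene in leukemias 1, 2 and 3 as a percent of the mean of the 3 whole marrow arrays, with the whole marrow arrays as grey diamonds and genes ordered by the median of the leukemias. The medians run from 21.4% for Mmp9 to 75.2% for Lcn2, and leukemia 2 is the lowest leukemia in 8 of 10 genes.

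The leukemias kept different shares of the whole marrow signal for different granule genes. As a percent of the mean whole marrow intensity, Mmp9 stood at 20.3% to 36.5%, Mmp8 at 35.1% to 49.5%, Camp at 25.0% to 50.1% and Ltf at 23.9% to 55.4%. S100a9 stood at 40.6% to 63.2%, S100a8 at 51.4% to 73.9%, Ngp at 47.8% to 72.4%, Chil3 at 53.4% to 84.4% and Lcn2 at 59.2% to 78.5%. Ly6g spanned 21.2% to 63.8%. In each of the 3 leukemias Mmp9 held the smallest share of all the granule genes, as the plot by leukemia shows. Ly6g lay close to Mmp9 in leukemia 2 (21.8% against 21.4%) and in leukemia 3 (21.2% against 20.3%). These genes were set beside each other after their values were seen, so no test is given. Whether compression of the brightest signals bears on these shares was not tested.

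The leukemias also differed among themselves. Leukemia 2 was the lowest in 8 of the 10 genes, all except Mmp9 and Ly6g, in which leukemia 3 was lowest. Leukemia 1 was highest in Ltf, Ngp, Mmp8, Mmp9 and Ly6g, and leukemia 3 in Camp, Lcn2, Chil3, S100a8 and S100a9. The median of the 10 genes was 59.3%, 37.9% and 56.6% of whole marrow in leukemias 1, 2 and 3. Leukemia 2 was also the lowest leukemia in summed intensity of the 15 monocyte markers, given above, and of 14 primary granule genes (10107, 5046 and 10837 in leukemias 1, 2 and 3), and the highest in summed erythroid markers (10836, 14625 and 13492). Whether the mix of cells accounts for its lower granule gene signal was not tested.

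Against lineage-negative marrow, all 10 granule genes passed as higher in the leukemias, where 2.95% of all genes were called higher and 5.74% lower. Folds ran from 11-fold to 56.1-fold, apart from Mmp9, which was given as a bound. The arrays of the groups did not overlap in 10 of 10, a pattern in that direction found in 11.6% of all genes. The median log2 difference was 4.32, against 0.01 over all genes. The genes not yet given with this comparison were Ngp (3.61 ± 0.44), Lcn2 (3.46 ± 0.41), Ly6g (4.51 ± 0.63), S100a8 (3.85 ± 0.36) and S100a9 (4.04 ± 0.28). Their adjusted p values were 0.00037 to 0.00503, and all 10 genes passed under all 17 alternatives. The leukemia samples were not lineage-depleted, so disease and depletion cannot be told apart in this comparison.

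In wild type marrow depleted of lineage-positive cells, little of the granule gene signal remained. All 10 passed as lower in lineage-negative than in whole marrow, where 13% of all genes were called lower, and their arrays did not overlap, as in 23.4% of all genes in that direction. Apart from Mmp9, folds ran from 15.6-fold for Lcn2 (-3.97 ± 0.41) to 82.0-fold for Chil3 (-6.36 ± 0.34). The adjusted p values of all 10 were 2.6e-05 to 0.000183. Ltf was 78.7-fold lower (-6.30 ± 0.39), and Mmp9 was at least 68.3-fold lower by the same bound as above. The median log2 difference was -5.94, against -0.04 over all genes. Lineage-negative pool 2 was the lowest pool for all 10 genes, with a median of 1.03% of the whole marrow signal, against 3.25% in pool 1 and 1.88% in pool 3. Pool 2 was below the median of all probe sets in Ltf, Mmp8, Mmp9, Chil3 and Ly6g, and pool 3 in Mmp9, so those values say little about order. Lcn2, Ngp and S100a8 retained most, at medians of 9.18%, 6.62% and 6.07%. Depletion enters this comparison and the previous one through the same lineage-negative arrays, and the leukemias and whole marrow arrays are each shared by 2 of the 3 comparisons.

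**Figure D3:**
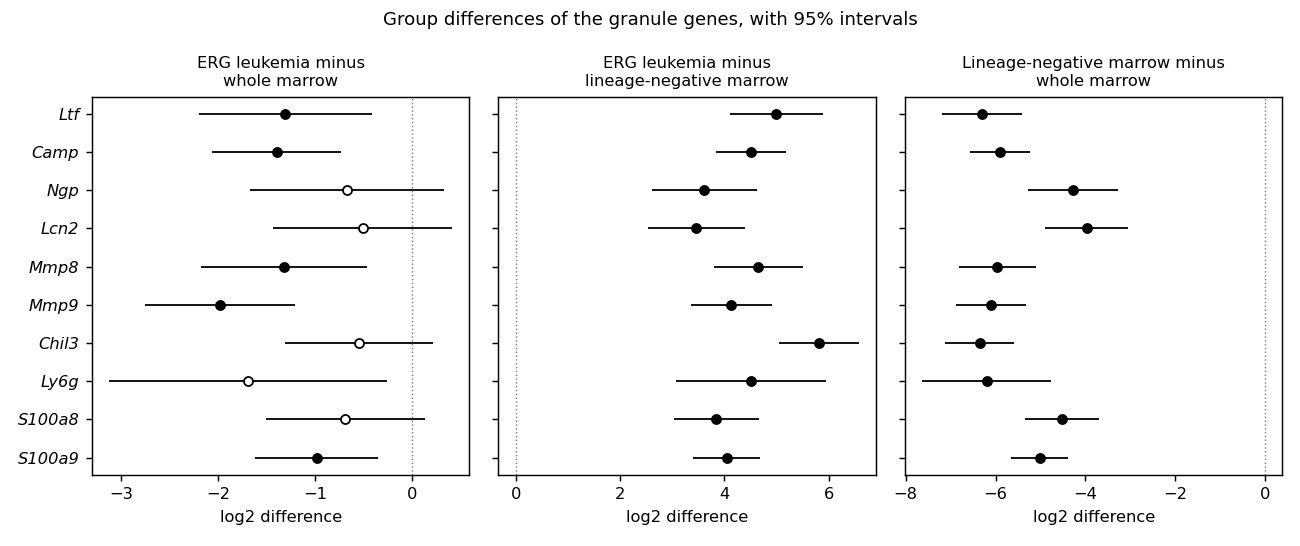
Log2 difference of each granule gene in the 3 comparisons, with 95% intervals from the model of all 9 arrays (filled circles, adjusted p under 0.05). Leukemia minus whole marrow runs from -1.98 for Mmp9 to -0.50 for Lcn2, with 5 filled circles, while all 10 are filled in the other 2 panels.

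Other neutrophil genes were grouped by the stage at which they are made, early stages first. The lists share some genes (Wfdc21, Slpi, Cybb, Cyba and Tlr4 among them), so their counts are not independent. Of 14 primary granule genes, 5 were lower and 0 higher in the leukemias than in whole marrow (median log2 difference -0.97). The largest were Hdc, whose enzyme forms histamine, at -2.38 ± 0.35 (adjusted p = 0.00224), and the small GTPase gene Rab44 at -1.64 ± 0.40 (adjusted p = 0.0173). The list is wider than the granule enzymes, and the genes named from it were picked by the size of their differences. Hdc is also a gene of basophils and mast cells. Of 11 eosinophil, basophil and mast cell markers, 8 were lower too, against 9.93% of all genes, while Gata2 was higher (3.13 ± 0.32). The part of these cells in the Hdc signal was not tested. Across the 14 primary granule genes, lineage-negative marrow retained medians of 87.9%, 47.0% and 69.1% of whole marrow in pools 1, 2 and 3, against 1.03% to 3.25% for the granule genes. Between these groups 3 of the 14 were lower in lineage-negative marrow, among them Serpinb1a (-1.92 ± 0.40) and Hdc (-1.83 ± 0.35), and 0 higher. Over all genes 13% were called lower and 21.7% higher. With 75th percentile centring 5 of the 14 were lower. The leukemias held medians of 62.9%, 31.0% and 70.9%. Against lineage-negative marrow 1 of the 14 was lower in the leukemias, Nkg7, a gene of killer cell granules (-1.27 ± 0.33, adjusted p = 0.0499), and 0 were higher. Over all genes 5.74% were called lower and 2.95% higher, so the single lower call is near the background share. Nkg7 missed the threshold in the 2-group fit, after cyclic loess, with 16 added before the log, without whole marrow array 1 or 2, without lineage-negative pool 1 or 3 and without any 1 leukemia, while 1 of the 14 was higher with 75th percentile centring and 2 without leukemia 2. With array weights 3 were lower and 1 higher. The 5 primary granule calls against whole marrow came down to 1 on leaving out whole marrow array 1 or 2 and to 3 on leaving out leukemia 2, and numbered 8 with dim genes left out and 9 with 75th percentile centring.

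Of 20 other secondary and tertiary granule genes, 12 were lower in ERG leukemia than in whole marrow and 0 higher, with a median of -1.30. The shares over all genes were 9.93% lower and 14.6% higher. Adam8, a membrane metalloprotease gene, read 191, 112 and 96.4 in the leukemias against 869, 825 and 633 in whole marrow (-2.59 ± 0.25, adjusted p = 0.000634). Ceacam10, of the CEACAM adhesion family, was 5.71-fold lower (-2.51 ± 0.30). Against lineage-negative marrow 17 of the 20 were higher in the leukemias, beside 2.95% of all genes. Among them were Lrg1 (533 against 23.0, adjusted p = 0.00293) and Cd177, a neutrophil surface glycoprotein gene (4.12 ± 0.33). In lineage-negative against whole marrow 18 were lower and 0 higher, beside 13% and 21.7% of all genes. Among the 18 was Chil1, a chitinase-like relative of Chil3 (29.1 against 1741, adjusted p = 2.6e-05). The lineage-negative means of Lrg1 and Chil1 lay below the median of all probe sets, so no fold is given. Of 6 measured stefin A and whey acidic protein cluster genes, 1 was lower in ERG leukemia than in whole marrow (Wfdc21, -1.89 ± 0.35), and 2 were without leukemia 3. A single call among 6 genes says little about the list, beside 9.93% of all genes called lower. Against lineage-negative marrow 5 of the 6 were higher, beside 2.95% of all genes, with Wfdc17 at 3.42 ± 0.60. That count was 3 in the 2-group fit, with 16 added before the log and without whole marrow array 1 or any 1 lineage-negative pool.

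Of 27 measured mature neutrophil receptor and secretory vesicle genes, 22 were lower in ERG leukemia than in whole marrow and 0 higher, with a median of -1.50. Among all genes 9.93% were called lower and 14.6% higher. Clec4d, a lectin receptor gene, read 107, 75.5 and 45.8 in the leukemias against 779, 542 and 602 in whole marrow (-3.14 ± 0.29, adjusted p = 0.000538). Csf3r, the receptor gene for granulocyte colony-stimulating factor, read 311, 165 and 267 in the leukemias against 1718, 1379.7 and 1170.1 in whole marrow (-2.55 ± 0.37). The list's median gene stood at 43.2%, 22.8% and 42.0% of whole marrow in leukemias 1, 2 and 3, beside 59.3%, 37.9% and 56.6% for the granule genes. Against lineage-negative marrow 19 were higher and 0 lower, beside 2.95% and 5.74% of all genes. The count of 19 became 14 higher and 1 lower in the 2-group fit. Retnlg, a resistin-like gene of neutrophils, was higher by 3.93 ± 0.63. Fcgr4, an antibody receptor gene, read 1124, 78.0 and 1476 in leukemias 1, 2 and 3. Its lineage-negative mean was 22.4, below the median of all probe sets (limma adjusted p = 0.0243). In whole marrow Fcgr4 read 389, 423 and 212. Leukemias 1 and 3 lay above every whole marrow array and leukemia 2 below, and the difference from whole marrow did not pass. The 22 calls became 13 on leaving out whole marrow array 1, and 1 gene rose without leukemia 2.

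**Figure D4:**
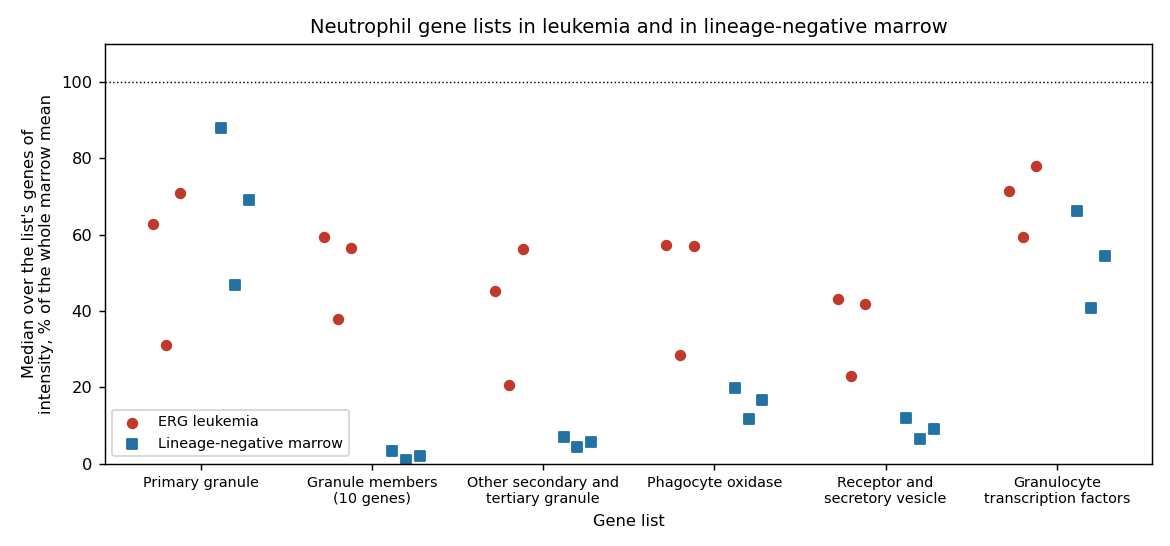
Median over the measured genes of 6 lists of intensity as a percent of the whole marrow mean (dotted line at 100%), with 1 red circle per leukemia and 1 blue square per lineage-negative pool. The lineage-negative pools hold 47.0% to 87.9% for primary granule genes and 1.03% to 3.25% for the granule genes, while the leukemias hold 31.0% to 70.9% and 37.9% to 59.3%.

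Genes of the phagocyte oxidase, the enzyme that makes superoxide, were lower in ERG leukemia than in whole marrow in 4 of 6 cases and higher in 0 (median -1.20). The all-gene shares were 9.93% lower and 14.6% higher. The proton channel gene Hvcn1 was lower by -1.95 ± 0.21 on the log2 scale and Ncf1, a cytosolic subunit gene, by -1.55 ± 0.29. Against lineage-negative marrow 5 of 6 were higher, beside 2.95% of all genes. Cybb, the catalytic subunit gene, stood at 3.20 ± 0.40 and Ncf4 at 1.57 ± 0.40 (adjusted p = 0.0478). The count of 5 became 3 in the 2-group fit, without lineage-negative pool 2 or 3 and without leukemia 1 or 3.

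Regulators of granulocyte maturation were lower in 9 of 17 cases in the leukemias than in whole marrow, and higher in 0. Of all genes 9.93% were called lower and 14.6% higher. Cebpe, which encodes C/EBP epsilon, read 192, 85.8 and 225 in the leukemias, 109, 61.0 and 90.2 in the lineage-negative pools and 575, 498 and 398 in whole marrow. The leukemias lay below whole marrow on every array, and leukemia 2 was again lowest. Cebpe was 3.13-fold lower than in whole marrow (-1.65 ± 0.36, adjusted p = 0.0112). Trib1, a pseudokinase gene that promotes breakdown of C/EBP alpha, was lower by -1.90 ± 0.18. Against lineage-negative marrow, where 2.95% of all genes were called higher, 2 of the 17 were higher. They were Rara, a retinoic acid receptor gene (0.84 ± 0.18), and Klf6 (0.66 ± 0.15). That count was 0 in the 2-group fit and without lineage-negative pool 2, pool 3 or leukemia 1, 1 without whole marrow array 1 or leukemia 3, and 4 without leukemia 2 or with array weights, which also called 2 lower.

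Relatives and partners of the granule genes were counted in the same way. Of 13 other S100 genes measured, 3 were lower in ERG leukemia than in whole marrow and 0 higher (median -0.06), beside 9.93% lower and 14.6% higher over all genes. S100a6 was 2.98-fold lower (-1.58 ± 0.30) and S100a11, at 2306, 1774 and 2556 against 4136, 4231 and 3869, was lower by -0.90 ± 0.17. Against lineage-negative marrow 3 of the 13 were higher, with S100a6 at 236 against 30.6, the second below the median of all probe sets, and S100a4 at 1.09 ± 0.23, and 1 without lineage-negative pool 2 or 3 or leukemia 3. Of 7 other Ly6 genes, Ly6d (-2.18 ± 0.53) and Ly6f (-0.62 ± 0.13) were lower than in whole marrow. Ly6d read 634, 126 and 389 in whole marrow arrays 1, 2 and 3, a wide spread. It also marks B-lineage cells, whose markers were lower in 10 of 11 cases. The part of B-lineage cells in the Ly6d signal was not tested. The Ly6 count dropped to 1 on leaving out whole marrow array 3 or leukemia 1, and 1 Ly6 gene rose after cyclic loess, with array weights or without leukemia 1. Against lineage-negative marrow 0 of the 7 passed by limma. Among 12 receptors and binding partners, Timp2 and Timp3 encode inhibitors of matrix metalloproteases. Timp2 read 102, 77.6 and 72.2 in the leukemias against 413, 412 and 337 in whole marrow (-2.21 ± 0.15, adjusted p = 0.000305). Timp3 read 20.7, 22.1 and 23.3 in the leukemias, below the median of all probe sets, and 408, 236 and 355 in the lineage-negative pools (adjusted p = 8.54e-05). Lrp1, a scavenger receptor gene, was higher than in lineage-negative marrow by 2.29 ± 0.33. In all, 4 of the 12 partners were lower and 1 was higher than in whole marrow, beside 9.93% and 14.6% of all genes, so the single higher call is below the background share. No partner was called higher with 75th percentile centring, after cyclic loess and without whole marrow array 1 or 2 or leukemia 2.

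The genes whose pattern lay nearest to the granule genes were Ifitm6, Tlr13, Cd177, Pilra, Itgam and Retnlg. Likeness was the mean absolute distance, over the 9 arrays, between a gene's log2 values centred on its own mean and the mean of the 10 granule genes centred likewise. It was 0.21 for Ifitm6, 0.25 for Tlr13 and 0.30 to 0.38 for the other 4, in the same range as for the granule genes themselves (0.21 for S100a9 to 0.54 for Lcn2), which are part of that mean. Ifitm6, of the interferon-induced transmembrane family, read 2639.9, 1121 and 2639.9 in the leukemias, 140.3, 39.2 and 100.03 in the lineage-negative pools and 3853, 4388 and 2897 in whole marrow. Leukemia 2 and pool 2 were the lowest of their groups, as in most granule genes. Itgam, the CD11b integrin gene, read 861, 426 and 794 in the leukemias, 101, 44.7 and 64.6 in the lineage-negative pools and 1996, 2129 and 1624 in whole marrow, and its antigen is also a common target of lineage depletion. Retnlg read 2272, 1479.9 and 689 in leukemias 1, 2 and 3, so leukemia 3 was lowest, as in Mmp9 and Ly6g. Against whole marrow Cd177 (-1.59 ± 0.33), Itgam (-1.52 ± 0.33) and Pilra (-1.54 ± 0.47, adjusted p = 0.0451) were lower, while Ifitm6 (-0.88 ± 0.49), Tlr13 (-1.05 ± 0.36) and Retnlg (-1.56 ± 0.63) did not pass.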

How the data were processed

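Each array measured total RNA with Affymetrix gene-level probe sets. The intensity values were deposited by the authors on a linear scale, and RMA and Partek are named in the submitters' processing notes. Of 28853 probe sets, 21789 carried 1 gene symbol, 1621 several and 5443 none. The brightest probe set per gene gave 19938 genes, 19856 of them found in the RefSeq table of GRCm38.p6. Values were log2-transformed without further normalization, although log2 values had been assumed when the tests were planned. One limma model (3.58.1, R 4.3.3) with eBayes was fitted to all 9 arrays, with Benjamini-Hochberg adjustment over all genes and a threshold of 0.05. It was tested on simulated data. Folds are ratios of means of log2 values. Levels below 33.4, the median of all probe sets, were treated as bounds for the granule genes. The design implied 3 comparisons. The members and lists were chosen with earlier results of these data known. Named in the text are the 10 members, per list the 2 genes with the largest called difference, the 6 nearest profiles and defining cell type markers. Arrays per group are separate mice or pools, numbered in accession order for the leukemias, and their number limits the precision. Alternatives were other scalings, fits, filters, an offset of 16 and leaving out each array.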

Additional observations from a re-analysis of the deposited data

How the results depend on the processing

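All 10 granule genes stayed higher in the leukemias than in lineage-negative marrow under all 17 alternatives, and lower in lineage-negative than in whole marrow under all 18. The number lower in ERG leukemia than in whole marrow was 5, and 9 with only those groups in the fit. It was 2 to 9 when 1 array was left out, and 4 to 6 under the remaining alternatives. No member changed direction. Lineage-negative and whole marrow arrays share numbers, and whether these pair them was not settled. Same-numbered deviations correlated at 0.31, -0.01 and -0.01, and differently numbered ones at -0.20 to 0.15, which cannot show how the mice were collected. With the replicate number as a block 10 of 10 members stayed lower (2547 genes lower and 4346 higher, against 2587 and 4328). Over all genes, leukemia against whole marrow gave 1980 lower and 2901 higher, but 2431 and 2215 with 75th percentile centring and 2428 and 2174 after cyclic loess, and 1248 lower without whole marrow array 1. Leukemia against lineage-negative marrow gave 1144 lower and 589 higher, 909 and 715 with centring, 881 and 719 after loess, 2001 and 1388 with array weights and 806 and 418 with 2 groups. Without lineage-negative pool 1, 2 or 3 it gave 490 and 314, 720 and 334 or 690 and 268, and without leukemia 2 or 3 it gave 808 and 827 or 607 and 400. Lineage-negative against whole marrow gave 3299 and 3342 with centring, which moved the median of all genes to -0.16, and 3095 and 3253 after loess. Depth of signal limits the lineage-negative values, of which 6 of 30 lay below the array-wide median. The cause of these shifts was not tested.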
